A study of Mus musculus with 8 samples.

Results

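The insulin-like growth factor (IGF) system was described at the mRNA level in mouse tibialis anterior (TA) muscles electroporated with *Uba1* siRNAs or control non-targeting (NT) siRNAs. *Uba1* encodes the main enzyme that activates ubiquitin for transfer to proteins. The 10 genes were chosen by name, as the ligands *Igf1* and *Igf2*, the receptor *Igf1r*, the binding proteins *Igfbp3*, *Igfbp4*, *Igfbp5*, *Igfbp6* and *Igfbp7*, and the receptor substrates *Irs1* and *Irs2*. All 10 were found among the 41709 genes of the table, and all 10 passed the filter on low values that left 11530 genes for testing. The 8 muscles came from 4 male C57BL/6J mice aged 3 months, and were taken 7 days after electroporation. Each mouse gave a muscle with NT siRNAs and a contralateral muscle with *Uba1* siRNAs, so that there were 4 muscles per group. Both legs received hyaluronidase before a pool of siRNAs. The titles place every NT siRNA in the right leg (R) and every *Uba1* siRNA in the left leg (L), so leg and siRNA cannot be told apart. All 4 titles of this group name UBA1, although the treatment tag reads UBA2 in replicate 2, UBA3 in replicate 3 and UBA4 in replicate 4. The whole muscle was extracted, so fewer cells of a type and less RNA per cell cannot be told apart.

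IGF1 and IGF2 are secreted growth factors that bind the receptor tyrosine kinase IGF1R. The activated receptor phosphorylates the scaffold proteins IRS1 and IRS2, which recruit PI3-kinase and thereby activate Akt and mTOR and restrain FoxO transcription factors. The binding proteins hold the ligands in blood and in the matrix around cells, and proteases that cleave them release the ligands. In skeletal muscle the pathway is known for promoting fiber growth and for glucose uptake, and IRS1 is a known target of ubiquitin ligases.

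On the scale of log2(TPM + 1), the substrates had the largest differences between siRNAs among the 10 mRNAs. *Irs2* averaged 24.8 ± 9.63 TPM after NT siRNAs and 9.39 ± 2.27 TPM after *Uba1* siRNAs, and *Irs1* averaged 18.6 ± 3.11 and 11.9 ± 3.70 TPM (mean ± SD, n = 4 muscles per group). Both were lower with *Uba1* siRNAs in 4 of 4 mice (2.98% of all genes). With the mouse as a block in the test, *Irs2* fell (adjusted p = 0.0113) and *Irs1* missed the threshold (adjusted p = 0.0641). Without the block, 0 of the 10 passed in limma, 2 of them being lower at an unadjusted p under 0.05 (1.98% of all genes). A Kruskal-Wallis test could call no gene, since its smallest adjusted p was 0.18. *Igf1* was higher in 4 of 4 mice, at 4.17 ± 1.31 against 6.20 ± 2.65 TPM, without passing either test.

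TPM are levels scaled to transcript length, and those of each muscle sum to 1000000, so the number of reads is unknown and no counting error can be given. Differences were tested with limma on log2(TPM + 1) over the 11530 genes that reached 1 TPM in 4 or more muscles, with Benjamini-Hochberg adjustment and a threshold of 0.05. Because 1 TPM is added, the log2 fold change (log2FC) of a gene with few TPM comes out smaller than the change itself. The test without the block called 3 genes (0.026%), and the test with the mouse as a block called 57 (0.494%). The median log2FC over all genes was 0.106, and 81.8% of genes lay above 0. Scaling by the median ratio to a common reference brought the median to 0.0016 and the share above 0 to 50.7%. The target itself averaged 60.6 ± 2.11 TPM after NT siRNAs and 15.9 ± 6.83 TPM after *Uba1* siRNAs, with a log2FC of -1.98 (adjusted p = 0.0527 without the block and 0.0278 with it). With the block it did not pass without the mouse of replicate 3 (adjusted p = 0.167). The muscle with *Uba1* siRNAs of replicate 2 stood apart, with the lowest *Uba1* at 6.77 TPM and the highest mitochondrial share of the TPM at 50.3%, where the other 7 muscles lay between 39.9% and 46.5%. Myofiber markers such as *Acta1*, *Mylpf* and *Tnnt3* were the most abundant of the marker lists, with a summed level of 103100 to 147900 TPM per muscle.

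The promoters of *Irs1* and *Irs2* are shown because these mRNAs were lower together. In the GENCODE M39 annotation of GRCm39, *Irs1* lies at chr1:82210822-82269338 and *Irs2* at chr8:11034681-11059499, both on the minus strand and each with 1 annotated transcript. The 250 bases before each annotated start are printed 5′ to 3′ on the strand of the gene, at chr1:82269339-82269588 for *Irs1* and chr8:11059500-11059749 for *Irs2*. Capitals mark GC-boxes (GGGCGG or its reverse complement CCGCCC) and a cAMP response half-site (TGACG), which do not overlap.
Irs1: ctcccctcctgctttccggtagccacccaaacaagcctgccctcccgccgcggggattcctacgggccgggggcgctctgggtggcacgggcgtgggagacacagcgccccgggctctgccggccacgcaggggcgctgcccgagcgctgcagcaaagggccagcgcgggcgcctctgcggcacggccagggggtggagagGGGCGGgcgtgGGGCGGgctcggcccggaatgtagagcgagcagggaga
Irs2: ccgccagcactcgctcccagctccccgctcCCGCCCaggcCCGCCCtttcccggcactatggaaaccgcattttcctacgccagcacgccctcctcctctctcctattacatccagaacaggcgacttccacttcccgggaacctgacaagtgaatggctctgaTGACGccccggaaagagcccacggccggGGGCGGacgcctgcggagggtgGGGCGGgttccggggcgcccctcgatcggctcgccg
The *Irs1* window held 75.6% G and C and the *Irs2* window 68.4%, where the median over the tested genes with such a window was 56.8%. *Irs1* had 2 GC-boxes, and *Irs2* had 4 of them and the half-site at 86 to 82 bases before its start. In windows around the RefSeq starts, which lie downstream of these, *Irs1* had 2 GC-boxes and 1 half-site, and *Irs2* had 1 GC-box and 0 half-sites, so the contrast between the genes depends on the start used. A GC-box on either strand was found in 49.16% of 11301 windows before GENCODE starts, and the half-site in 23.83%. Of 9046 genes, 69.246% had a GC-box and 35.916% the half-site in any of their windows around RefSeq starts. Those windows are longer, since they also take in bases after the start, and for *Irs1* and *Irs2* only the first listed was searched. The FoxO core GTAAACA, the AP-1 motif TGAGTCA and the full cAMP response element TGACGTCA were in neither window before a GENCODE start. They were in 2.36%, 3.13% and 2.13% of all such windows.

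A shorter element was common to both genes further downstream, between the GENCODE start and the RefSeq start of each. It is printed because both copies hold an E-box (CACGTG) followed by TTTTGCTC, with 0 bases between them in *Irs1* and 3 in *Irs2*, both in capitals. The *Irs1* copy is at chr1:82269252-82269281 and the *Irs2* copy at chr8:11058950-11058979 of GRCm39, on the minus strand.
Irs1: ctccgtCACGTGTTTTGCTCctctggagtg
Irs2: cagagtCACGTGttgTTTTGCTCttagttc
The E-box began 115 bases before the RefSeq start in *Irs1* and 44 bases before it in *Irs2*. Within windows of the same length around the RefSeq starts of 9046 tested genes, an E-box was present in 12.127%. The 10 bases GTCACGTGTT, counted on both strands, were present in 15 genes (0.166%) and TGTTTTGCTC in 6 genes (0.066%). Both runs of 10 bases were found by comparing the windows of *Irs1* and *Irs2* with each other, so their presence in both genes was given in advance. How rare they are elsewhere is therefore no test of a shared element. These letters were picked after the levels were seen, and a match describes the sequence alone.

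TPM are scaled per length, so levels can be compared between genes. With NT siRNAs the level was highest for *Igfbp5* at 279.3 ± 52.2 TPM, followed by *Igfbp7* at 114.4 ± 15.2 and *Igfbp6* at 53.9 ± 11.2 TPM, and the ranges of these neighbours did not overlap. *Irs2*, *Igf2*, *Igfbp4* and *Irs1* came next at 24.8, 24.5, 18.7 and 18.6 TPM, and each overlapped with its neighbour. *Igfbp3* at 11.3, *Igf1* at 4.17 and *Igf1r* at 2.26 TPM followed, each apart from the one before it. Transcripts of binding proteins outnumbered those of the ligands, whose sum was 5.89% ± 1.89 of the sum of *Igfbp3* to *Igfbp7* with NT siRNAs and 5.82% ± 2.19 with *Uba1* siRNAs.

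**Figure D1:**
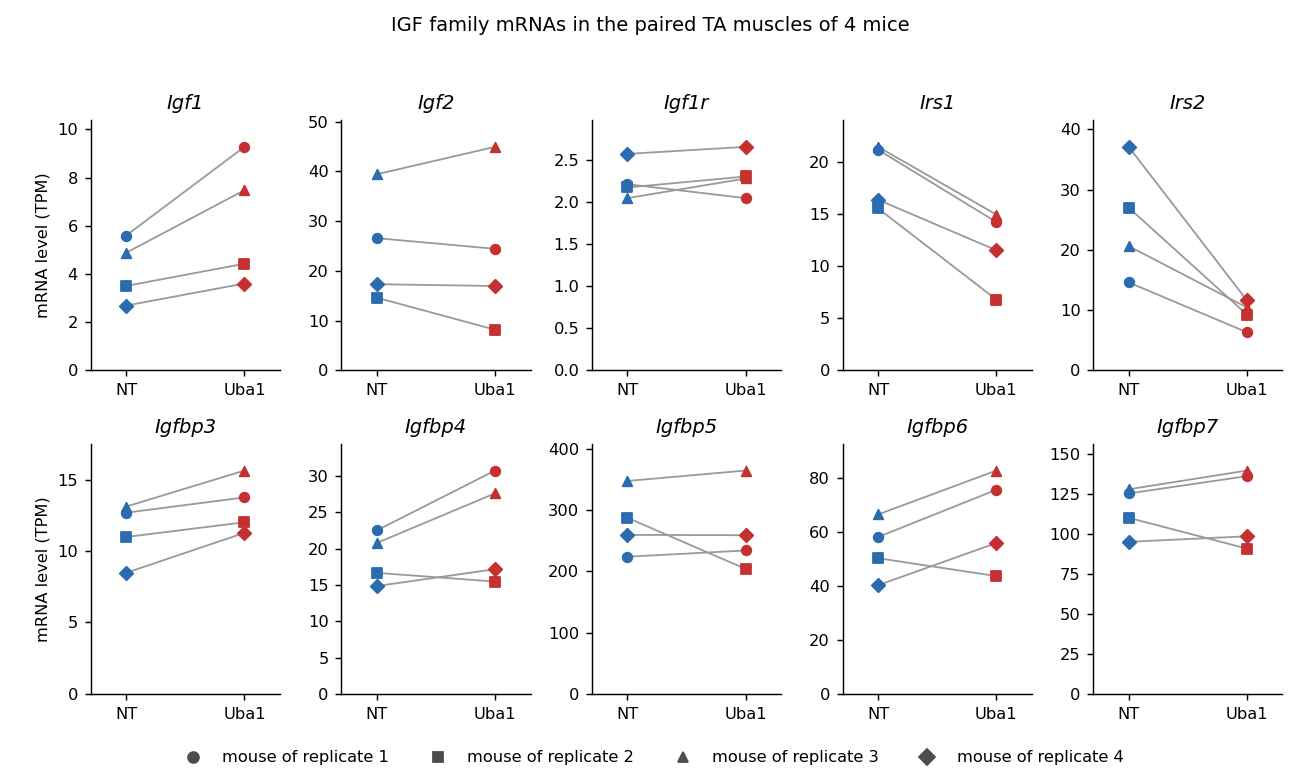
Level of each IGF family mRNA in TPM (vertical axes from 0, scaled per gene) in muscles with NT siRNAs (blue) and *Uba1* siRNAs (red). Each symbol is a mouse and each line joins its legs. *Irs1* and *Irs2* slope down and *Igf1* and *Igfbp3* slope up in 4 of 4 mice.

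Among the ligands, *Igf1* (chr10:87693642-87772904), the growth factor made by muscle and liver, had the higher relative change. Its level in the muscles with NT siRNAs of replicates 1 to 4 was 5.60, 3.50, 4.88 and 2.69 TPM. In the contralateral muscles with *Uba1* siRNAs it was 9.28, 4.42, 7.48 and 3.60 TPM. Each muscle with *Uba1* siRNAs was above the opposite leg, by 1.26-fold to 1.66-fold, but the groups overlapped because replicates 1 and 3 were high in both. The log2FC was 0.44 ± 0.272 (SE; adjusted p = 0.393 from limma), and lay between 0.24, without the muscle with *Uba1* siRNAs of replicate 1, and 0.63 when single muscles were left out. With the mouse as a block the SE narrowed to 0.0838 and the adjusted p was 0.0703. Across all genes, 32.2% were higher in all pairs.

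*Igf2* (chr7:142204503-142220694), an imprinted growth factor best known from fetal growth, was at 26.6, 14.6, 39.4 and 17.3 TPM in muscles with NT siRNAs and at 24.4, 8.15, 45.0 and 16.9 TPM in those with *Uba1* siRNAs. The groups overlapped, and the order of the 4 mice was the same in both legs. The log2FC was -0.18 ± 0.467 (SE; adjusted p = 0.838). Its sign turned without the muscle with *Uba1* siRNAs of replicate 2, to 0.215. The ratio of *Igf2* to *Igf1* within a muscle was 5.86 ± 1.77 with NT siRNAs and 3.80 ± 1.91 with *Uba1* siRNAs, and was lower in 4 of 4 mice.

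*Igf1r* (chr7:67601518-67883416), the receptor, was the least abundant of the 10. It was at 2.22, 2.18, 2.05 and 2.58 TPM in muscles with NT siRNAs and at 2.05, 2.31, 2.28 and 2.66 TPM in those with *Uba1* siRNAs. The groups overlapped, and the log2FC of 0.03 (SE 0.0861, adjusted p = 0.853) turned to -0.05 with median-ratio scaling. The insulin receptor gene *Insr*, whose product shares the substrates IRS1 and IRS2, was more abundant. Its level was 10.1, 9.24, 11.0 and 12.9 TPM with NT siRNAs and 12.3, 14.5, 14.8 and 14.4 TPM with *Uba1* siRNAs. It was higher in 4 of 4 mice (32.2% of all genes), with a log2FC of 0.35 (SE 0.104, unadjusted p = 0.00791, adjusted p = 0.174 from limma). With median-ratio scaling its log2FC was 0.24 (unadjusted p = 0.0743 from limma). The ratio of *Insr* to *Igf1r* was 4.80 ± 0.496 with NT siRNAs and 6.04 ± 0.482 with *Uba1* siRNAs, and the groups did not overlap.

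*Igfbp3* (chr11:7156086-7164179), the main carrier of IGFs in blood, was at 12.7, 11.0, 13.1 and 8.48 TPM in muscles with NT siRNAs and at 13.8, 12.0, 15.6 and 11.3 TPM in those with *Uba1* siRNAs. It was higher in 4 of 4 mice, with overlapping groups. The log2FC was 0.21 (adjusted p = 0.426, and 0.145 with the block), and fell to 0.10 with median-ratio scaling, since it lay only 0.104 above the median of all genes. Without the muscle with NT siRNAs of replicate 4 it was 0.09, and without that with *Uba1* siRNAs of replicate 3 it was 0.13.

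*Igfbp4* (chr11:98932064-98945218), an inhibitor of IGF action that pappalysin cleaves, was at 22.5, 16.7, 20.8 and 14.9 TPM in muscles with NT siRNAs and at 30.8, 15.5, 27.6 and 17.2 TPM in those with *Uba1* siRNAs. *Igfbp6* (chr15:102052697-102057953), which prefers IGF2, was at 58.2, 50.4, 66.6 and 40.3 TPM against 75.8, 43.7, 82.9 and 56.0 TPM. Both were higher in 3 of 4 mice and lower in replicate 2, and their groups overlapped. Their log2FC were 0.23 (adjusted p = 0.576) and 0.24 (adjusted p = 0.546), and 0.11 and 0.12 with median-ratio scaling. Leaving out single muscles gave 0.07 to 0.39 for *Igfbp4* and 0.10 to 0.41 for *Igfbp6*.

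*Igfbp5* (chr1:72897091-72914043), the most abundant of the family in these muscles, was at 223.6, 287.1, 347.1 and 259.2 TPM in muscles with NT siRNAs and at 233.8, 203.7, 364.1 and 258.7 TPM in those with *Uba1* siRNAs. *Igfbp7* (chr5:77493130-77555931), a related protein with low affinity for IGFs, was at 125.1, 109.9, 127.7 and 95.0 TPM against 135.9, 90.7, 139.4 and 98.4 TPM. In replicate 2 the leg with *Uba1* siRNAs had 0.709 and 0.825 of the level in the opposite leg, and in the other mice these ratios lay between 0.998 and 1.09. The log2FC was -0.09 for *Igfbp5* (SE 0.186, adjusted p = 0.793) and 0.005 for *Igfbp7* (SE 0.157, adjusted p = 0.988), and leaving out single muscles turned the sign of both. The summed level of *Igfbp3* to *Igfbp7* was 477.6 ± 69.2 TPM with NT siRNAs and 481.7 ± 111.0 TPM with *Uba1* siRNAs. The share of *Igfbp5* in that sum was 58.3% ± 5.24 and 55.0% ± 4.98, and it was lower in 4 of 4 mice.

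*Irs1*, the substrate that carries much of the IGF1 signal in muscle, was at 21.2, 15.5, 21.4 and 16.4 TPM with NT siRNAs. With *Uba1* siRNAs it was at 14.2, 6.78, 14.9 and 11.5 TPM. Every muscle with *Uba1* siRNAs was below every muscle with NT siRNAs, and the leg-to-leg ratio was 0.437 in replicate 2 and between 0.673 and 0.704 in the other mice. The mean was lower by 36.3%, the log2FC was -0.65 ± 0.218 (SE), and the adjusted p was 0.197 without the block and 0.0641 with it. With the block and median-ratio scaling together the adjusted p was 0.0411. Without the muscle with *Uba1* siRNAs of replicate 2, which had the lowest *Irs1*, the log2FC was -0.42, which is 1.5 times smaller, and without both muscles of that mouse it was -0.50. By the two-sided exact permutation test p was 0.0286, below which no comparison of 4 muscles with 4 can go. It does not use the pairing, and the exact sign-flip test of the 4 pairs gave p = 0.125, the smallest that 4 pairs allow.

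*Irs2*, a substrate known for rapid changes of its mRNA with nutrition, was at 14.6, 27.0, 20.6 and 37.1 TPM with NT siRNAs. With *Uba1* siRNAs it was at 6.30, 9.23, 10.4 and 11.6 TPM. The groups did not overlap, and the leg with *Uba1* siRNAs had between 0.313 and 0.505 of the level in the opposite leg. The mean was lower by 62.2%, and the log2FC was -1.27 ± 0.266 (SE; adjusted p = 0.129 from limma without the block). With the mouse as a block the SE was 0.117, the unadjusted p 9.76e-06 and the adjusted p 0.0113, and *Irs2* ranked 10 of 11530 genes by p. Leaving out each mouse in turn from the test with the block gave log2FC from -1.38 to -1.16 and adjusted p from 0.0103 to 0.0416. The two-sided exact permutation test again reached its lower limit of p = 0.0286, and the exact sign-flip test of the 4 pairs its own limit of 0.125.

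**Figure D2:**
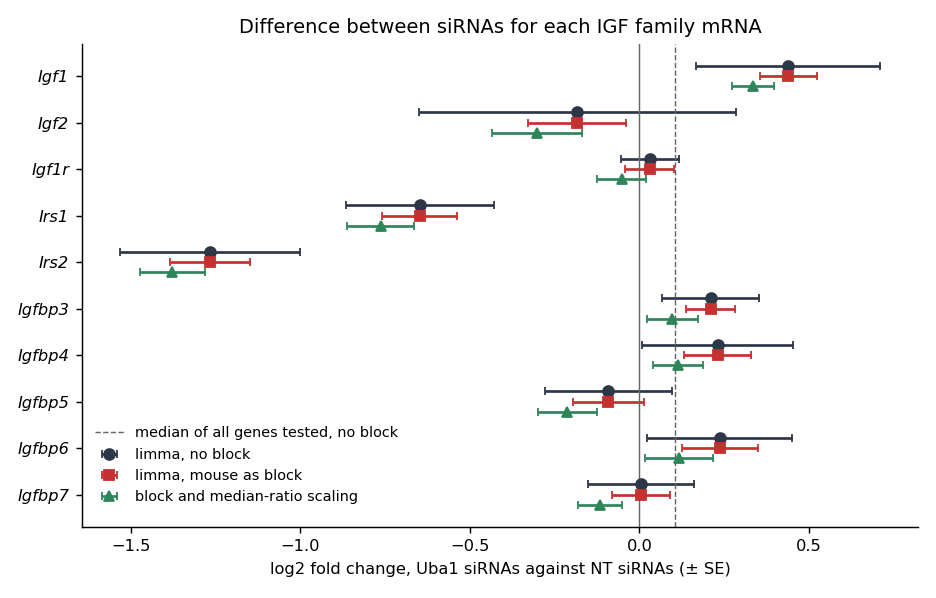
The log2FC of each IGF family mRNA (horizontal axis, *Uba1* siRNAs against NT siRNAs, bars ± SE) from limma without a block, with the mouse as a block, and with the block and median-ratio scaling. The solid line is 0 and the dashed line the median of all genes, 0.106. *Irs2* at -1.27 and *Irs1* at -0.65 lie left of 0 in all 3 fits.

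Read against all genes, 2 of the 10 had an unadjusted p under 0.05 and were lower with *Uba1* siRNAs (1.98% of all genes), and 0 of 10 were higher with such a p (16.0% of all genes). Median-ratio scaling left 2 lower and 0 higher, beside 712 lower and 511 higher of all 11530 genes. With the block and no scaling, 2 of 10 were lower (2.8% of all genes) and 3 of 10, *Igf1*, *Igfbp3* and *Igfbp4*, were higher (22.4% of all genes). When median-ratio scaling was added to the block, only *Igf1* remained higher (unadjusted p = 0.00126 from limma). *Igfbp5* then joined the lower *Irs1* and *Irs2* (unadjusted p = 0.0472 from limma). In that fit 1813 of all 11530 genes had an unadjusted p under 0.05 in either direction. The groups did not overlap for 2 of 10, both lower with *Uba1* siRNAs, as in 1.01% of all genes. Of the 10, 6 had a log2FC above 0, and 4 did with median-ratio scaling, where the median moved from 0.018 to -0.084.

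The summed level of *Irs1* and *Irs2* was 35.7, 42.5, 42.0 and 53.5 TPM with NT siRNAs and 20.5, 16.0, 25.3 and 23.1 TPM with *Uba1* siRNAs. The means were 43.4 ± 7.36 and 21.3 ± 4.01 TPM. The groups did not overlap, which follows from *Irs1* and *Irs2* each being without overlap and is no further result. The balance of the substrates also differed between mice, since *Irs2* per *Irs1* with NT siRNAs was 0.689 and 0.962 in replicates 1 and 3 but 1.74 and 2.27 in replicates 2 and 4. This ratio was lower in the leg with *Uba1* siRNAs in 4 of 4 mice, at 1.41 ± 0.722 against 0.878 ± 0.397, with overlapping groups. Set against the insulin receptor, *Irs1* per *Insr* was 1.75 ± 0.365 with NT siRNAs and 0.858 ± 0.299 with *Uba1* siRNAs. *Irs2* per *Insr* was 2.28 ± 0.735 and 0.664 ± 0.123. Neither pair of groups overlapped, as could be foreseen from lower substrates without overlap and an *Insr* that was higher in 4 of 4 mice.

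The mouse accounted for most of the variation of the ligands, the receptor and the binding proteins. The sum of squares of log2(TPM + 1) over the 8 muscles was split into siRNA, mouse and remainder. The mouse took between 72.8% (*Igfbp3*) and 92.1% (*Igf2*) of it for these 8 genes, where the median over all genes was 46.2%. For *Irs1* the mouse took 42.0% and the siRNA 50.3%, and for *Irs2* the mouse took 24.8% and the siRNA 71.9%, with a median siRNA share of 20.2% over all genes.

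**Figure D3:**
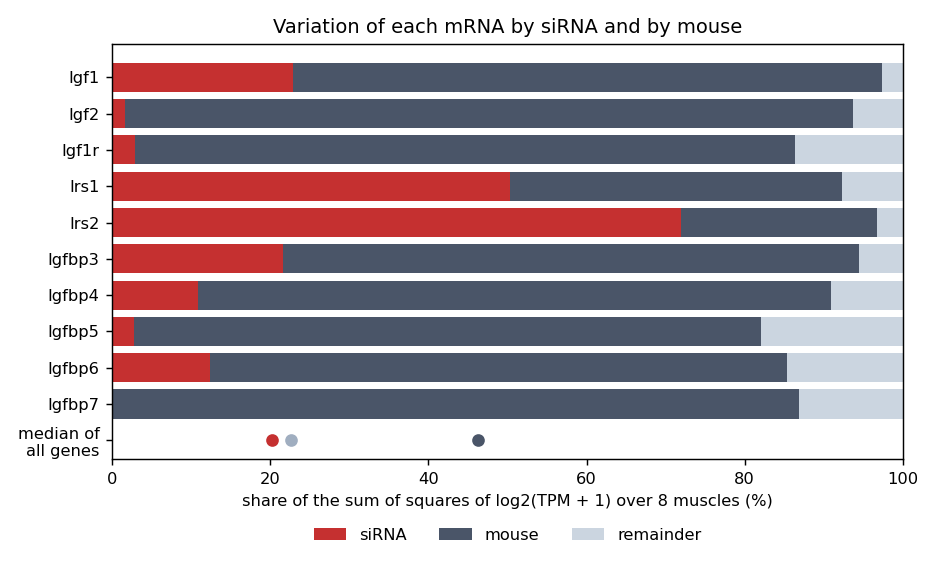
Share of the sum of squares of log2(TPM + 1) over 8 muscles (horizontal axis, %) due to siRNA (red), mouse (dark grey) and remainder (light grey) for each IGF family mRNA, with the median of all genes as points. *Irs2* has the longest red bar, 71.9%, and *Igf2* the longest mouse bar, 92.1%.

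The 3 members with the smallest p were each set beside the genes with the most alike pattern over the 8 muscles, by Pearson's r of log2(TPM + 1), a description over muscles that share 4 mice. The nearest to *Irs2* were *Rel*, which encodes an NF-kB subunit (r = 0.980), *Tgif1*, a homeobox repressor (r = 0.978), and *Arid5a*, an RNA-binding regulator of cytokine mRNAs (r = 0.972). *Tgif1* was at 5.21, 8.79, 7.16 and 8.72 TPM in muscles with NT siRNAs and at 3.00, 3.50, 4.02 and 4.94 TPM in those with *Uba1* siRNAs, and so shared the higher level of replicates 2 and 4 with NT siRNAs. The nearest to *Irs1* were *Neurl3* (r = 0.963), *Twsg1*, which encodes a BMP-binding protein (r = 0.961), and *Mob3a* (r = 0.954). *Neurl3* was at 5.97, 5.64, 6.19 and 5.31 TPM in muscles with NT siRNAs and at 5.01, 2.60, 4.34 and 4.15 TPM in those with *Uba1* siRNAs. The nearest to *Igf1* were *Mppe1* (r = 0.992), *Ptpa* (r = 0.989) and *Cyp2j6* (r = 0.988), whose own log2FC were 0.25, 0.12 and 0.20.

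Other genes of the pathway were taken from 5 lists with 104 genes, of which 89 passed the filter. Without the block 0 of the 89 had an adjusted p under 0.05, while 18 were higher (16.0% of all genes) and 2 lower (1.98%) at an unadjusted p under 0.05. With median-ratio scaling this became 3 higher and 6 lower, beside 511 higher and 712 lower of all 11530 genes. Of the 89, 75 had a log2FC above 0, and 48 did with median-ratio scaling. Their median log2FC was 0.113, beside 0.106 for all genes.

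The list of the other members of the IGF system held 20 genes, and 7 were tested, since most were close to 0 TPM in these muscles. *Igfbp1* was listed at 0 in all 8 muscles, *Igfbp2* was at 0.288 ± 0.158 and 0.233 ± 0.0813 TPM, and *Pappa*, the gene for pappalysin, ranged from 0.0862 to 0.119 and from 0.0754 to 0.138 TPM. *Htra1*, which encodes a secreted protease that cleaves binding proteins, was at 20.8, 18.1, 21.0 and 17.5 TPM in muscles with NT siRNAs and at 28.3, 21.4, 31.0 and 24.2 TPM in those with *Uba1* siRNAs. The groups did not overlap, as in 10.6% of all genes in this direction, and the log2FC was 0.41 (unadjusted p = 0.00651, adjusted p = 0.168 from limma). *Htra1* as a percentage of *Igfbp5* was 7.10 ± 1.49 with NT siRNAs and 10.1 ± 1.56 with *Uba1* siRNAs, and was higher in 4 of 4 mice. *Stc1*, which encodes stanniocalcin-1, an inhibitor of pappalysin, was at 1.35 ± 0.438 and 0.704 ± 0.258 TPM (log2FC -0.46, adjusted p = 0.197). Its groups did not overlap, as in 1.01% of all genes in this direction. *Igf2r*, the receptor that clears IGF2, was at 26.2 ± 2.43 and 26.7 ± 3.81 TPM (log2FC 0.02, adjusted p = 0.912, and -0.09 with median-ratio scaling).

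In the list of growth hormone signaling to *Igf1*, 7 of 8 genes were tested. The growth hormone receptor gene *Ghr* was at 25.0 ± 4.27 and 27.5 ± 1.26 TPM (log2FC 0.14, adjusted p = 0.461). *Socs3*, a feedback inhibitor of cytokine signaling, was at 18.5, 37.9, 22.0 and 34.1 TPM in muscles with NT siRNAs and at 10.9, 11.4, 10.1 and 20.1 TPM in those with *Uba1* siRNAs. It was lower in 4 of 4 mice, and only replicate 4 with *Uba1* siRNAs reached above the lowest muscle with NT siRNAs. Its log2FC was -1.03 (SE 0.263, adjusted p = 0.150 without the block and 0.0478 with it). With the block it did not pass without the mouse of replicate 3 (adjusted p = 0.235) or of replicate 4 (adjusted p = 0.105).

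In the branch of PI3-kinase, Akt, mTOR and FoxO, all 40 genes were tested, and 6 were higher (16.0% of all genes) and 0 lower at an unadjusted p under 0.05, but 1 higher and 1 lower with median-ratio scaling. Of these, *Tbc1d4*, an Akt substrate in glucose transporter traffic, was at 3.20 ± 0.508 and 5.20 ± 1.36 TPM (log2FC 0.54, adjusted p = 0.177). Also among them were *Akt1* (log2FC 0.20), *Gsk3b* (0.23), *Eif4ebp2* (0.26) and *Foxo3* (0.28). *Akt2* was at 69.2 ± 3.23 and 74.5 ± 3.80 TPM (log2FC 0.10, and -0.015 with median-ratio scaling), and *Foxo1*, a transcription factor that Akt restrains, at 4.80 ± 0.858 and 5.60 ± 0.944 TPM (log2FC 0.19, and 0.09 with the scaling), and neither had an unadjusted p under 0.05. Of the 40, 38 had a log2FC above 0, but only 24 with median-ratio scaling, when the median went from 0.131 to 0.014.

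Among 25 tested adaptors, Ras branch genes and phosphatases, 9 were higher (16.0% of all genes) and 0 lower at an unadjusted p under 0.05, but 1 higher and 2 lower with median-ratio scaling. *Sos1* and *Sos2*, which load Ras with GTP, had log2FC of 0.26 and 0.29. *Grb14*, an adaptor that inhibits the insulin receptor, was at 6.30 ± 0.981 and 8.50 ± 0.929 TPM (log2FC 0.38, adjusted p = 0.174). Its groups did not overlap, as in 10.6% of all genes in this direction. *Braf* and *Spry1*, a kinase and an inhibitor of the Ras branch, had log2FC of 0.21 and 0.31. Median-ratio scaling left 13 of the 25 above 0, where there had been 20.

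The 10 ubiquitin ligases reported for IRS1 or IGF1R were all tested, and 1 was higher (16.0% of all genes) and 0 lower at an unadjusted p under 0.05, but 0 higher and 1 lower with median-ratio scaling. The gene that was higher without the scaling was *Fbxw8*, a subunit of a cullin ligase, at 11.0 ± 0.631 and 12.8 ± 0.698 TPM (log2FC 0.21, adjusted p = 0.183, and log2FC 0.10 with median-ratio scaling). The gene that was lower with the scaling was *Mdm2*, named after its values were seen (log2FC -0.17, adjusted p = 0.456 with the scaling, and log2FC -0.06 without it). *Fbxo40*, the muscle F-box protein that targets IRS1, was at 157.2 ± 14.1 and 154.5 ± 15.0 TPM (log2FC -0.03, adjusted p = 0.889). Thus 7 of 10 lay above 0, and 3 of 10 with median-ratio scaling.

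**Figure D4:**
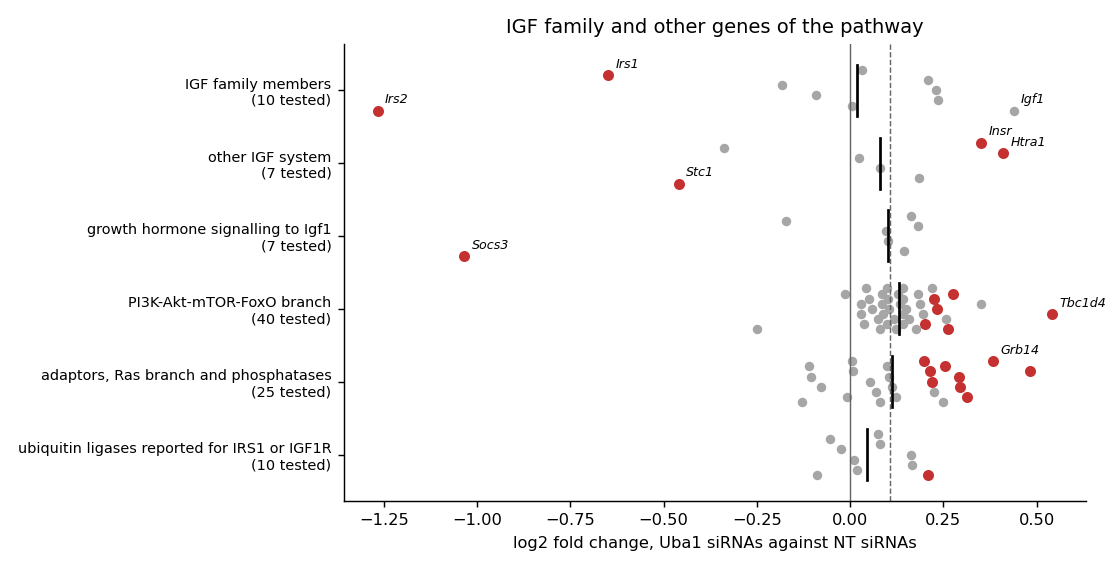
The log2FC (horizontal axis, *Uba1* siRNAs against NT siRNAs) of the IGF family and of the tested genes of 5 pathway lists. Red points have an unadjusted p under 0.05, black bars are list medians, and the dashed line is the median of all genes, 0.106. *Irs2*, *Socs3* and *Irs1* lie farthest to the left, and the branch lists center near the dashed line.

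Markers of other cells varied between the muscles beside the IGF family. The summed level of 12 fibroblast markers, among them *Gsn*, *Col3a1* and *Col1a1*, ranged from 1035 to 1762 TPM with NT siRNAs and from 1154 to 2117 TPM with *Uba1* siRNAs. In both legs its 2 highest values were those of replicates 1 and 3, as they were for *Igf1*, *Igf2*, *Igfbp3*, *Igfbp4*, *Igfbp6*, *Igfbp7* and *Irs1*. The factors of the median-ratio scaling, which reflect genes in general, were also highest in these replicates. They were 0.959 and 0.990 with NT siRNAs and 1.119 and 1.117 with *Uba1* siRNAs. The share of all genes with this order was not counted. Of 12 fibroblast markers, 10 had a log2FC above 0, as did 81.8% of all genes. The sum of 10 macrophage markers, led by *Lyz2*, *C1qb* and *C1qa*, ranged from 150.9 to 475.6 TPM and from 138.9 to 488.4 TPM. Their part in the levels of the IGF family was not tested.

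Beside the lower *Irs1* and *Irs2*, the summed level of 6 adipocyte markers, led by *Cfd*, *Adipoq* and *Cidec*, was also lower in 4 of 4 mice. It was 65.5, 76.8, 67.8 and 34.0 TPM with NT siRNAs and 56.8, 7.77, 59.1 and 11.2 TPM with *Uba1* siRNAs, and 0 of its 5 tested genes had a log2FC above 0. The sum of 9 osteoblast and bone markers ranged from 11.3 to 24.4 TPM and from 16.4 to 57.9 TPM. It fell from 24.4 to 16.4 TPM in replicate 1 and rose in the other mice. All 4 of its tested genes lay above 0, as did 81.8% of all genes. The sum of 13 markers of regenerating and denervated muscle, such as *Myod1* and *Myog*, ranged from 75.2 to 156.3 TPM and from 46.1 to 136.4 TPM, and 2 of 12 tested genes lay above 0. No marker of these lists was at 0 in all muscles. The 5 tested blood markers also had 0 log2FC above 0 (median -0.69), and the 5 tested tenocyte markers had 5 (median 0.42). All 3 tested lymphocyte and neutrophil markers also lay above 0 (median 0.51). Of the 10 myofiber markers, 2 had a log2FC above 0 (81.8% of all genes), with 0 higher or lower at an unadjusted p under 0.05, and 5 lower with median-ratio scaling. The part of these cells in the lower *Irs1* and *Irs2* was not tested.

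**Figure D5:**
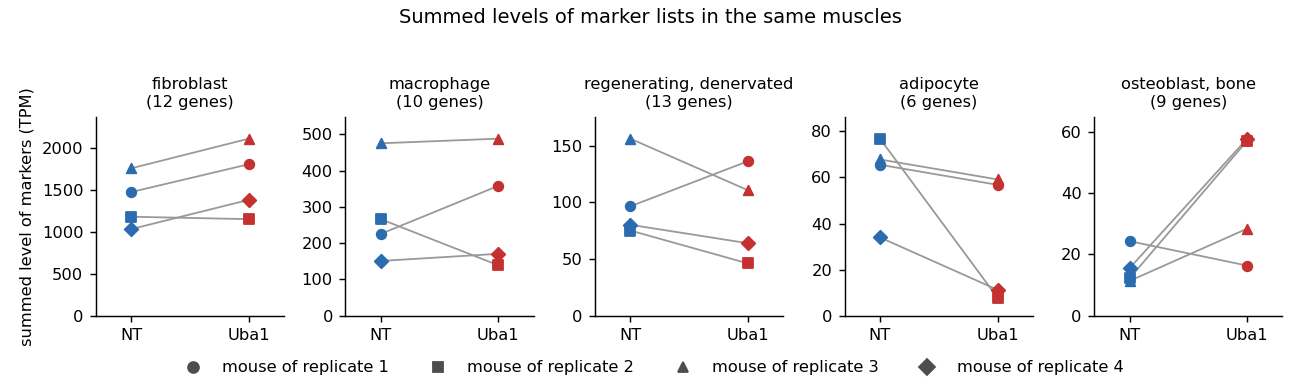
Summed TPM of 5 marker lists (vertical axes from 0) in muscles with NT siRNAs (blue) and *Uba1* siRNAs (red), with a symbol per mouse and a line joining its legs. The fibroblast sum is higher in replicates 1 and 3 than in the others, and the adipocyte sum slopes down in 4 of 4 mice, to 7.77 TPM in replicate 2.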

How the data were processed

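RNA-seq libraries of 8 TA muscles (4 per siRNA) were made from total RNA with the TruSeq kit and sequenced as paired ends on an Illumina NovaSeq instrument. Reads were quality-trimmed, and the authors used CLC Genomics Workbench for alignment to GRCm39 and for the deposited TPM of each gene, without pooling muscles. The annotation is not given in the sources used here. Groups and replicate numbers were taken from the labels.

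From the TPM, log2(TPM + 1) was fitted with limma (version 3.58.1, R 4.3.3; lmFit, eBayes with trend) over 11530 genes, without covariates. Same-numbered muscles are contralateral legs of 1 mouse, so the fit with the mouse as a block is given where it changes a call. The deviations of same-numbered muscles from their group means correlated at -0.00037, 0.20, 0.58 and 0.54 over genes. Sequences came from GRCm39, with starts from GENCODE M39 and, placed by exact match, RefSeq of GRCm38.p6. In simulated data on 11530 genes, limma made 203 calls with 9 of them false. It found 97.0% of 200 genes given a log2 change of 1, and called 0 when none was given. In the muscles, limma without the block called 3 genes. It did not call *Uba1* at a log2FC of -1.977 (adjusted p = 0.0527) or *Irs2* at -1.266 (adjusted p = 0.129). The share of genes with a log2 change of 1 that it finds in the muscles was not tested.

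The 10 members, the lists and the motifs were chosen with earlier results of these data known. The text names all 10 members, 12 fixed partners, up to 5 genes per pathway list with the smallest unadjusted p under 0.05, 3 genes alike in pattern to each of 3 members, and up to 3 genes per marker list with the highest mean TPM, except 1 gene that is not reported here. The alternatives were the pseudocount, the filter, the scaling, the block, a Kruskal-Wallis test, an unmoderated linear model and leaving out muscles. Leaving out both muscles of a mouse, with or without the block, was chosen after seeing the data. The number of muscles limits the precision.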

Additional observations from a re-analysis of the deposited data

How the results depend on the processing

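*Irs1* and *Irs2* kept their direction in all 26 alternatives run. *Irs2* passed an adjusted p of 0.05 in all 6 fits with the replicate block and in 0 of the 20 others. *Irs1* passed in 2, the replicate block with median-ratio scaling (-0.763) and the replicate block without mouse 1 (-0.684). The exact sign-flip test of the 4 pairs gave p = 0.125 for each, the smallest it can give. Of the 10 members, 1 passed with the replicate block, 2 when median-ratio scaling was added to it, and 2, 1, 1 and 1 with the block without mouse 1, 2, 3 and 4, numbered by replicate. Of the other pathway genes, 1 passed with the block, 1 when median-ratio scaling was added, and 4, 1, 0 and 0 with the block without mouse 1, 2, 3 and 4.

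Over all genes, 3 passed in the test as reported, 11 with a mean of 5 TPM or more, 13 without mitochondrial genes, 28 with quantile normalization, 23 with median-ratio scaling, 57 with the replicate block and 76 with block and scaling. The Kruskal-Wallis test, whose smallest p is 0.0209 with 4 muscles against 4, called 0 (2210 at an unadjusted p under 0.05). Without mouse 1, 2, 3 and 4 there were 0 (1376 at an unadjusted p under 0.05), 5, 0 (1123) and 16, and with the block 290, 26, 7 and 29. Leaving out each muscle gave 2 to 39, with 39 without the muscle with *Uba1* siRNAs of replicate 4.

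*Uba1* passed in 12 of the 26 alternatives, and in 5 of the 6 with the block, failing there without mouse 3 (adjusted p = 0.167). Its log2FC was -1.977 with a mean of 5 TPM or more and with the block, -2.061 with quantile normalization, -2.094 with median-ratio scaling, with or without the block, and -1.996 without mitochondrial genes. It was -1.652 without mouse 2 with or without the block, -2.072, -1.987 and -2.196 with the block without mouse 1, 3 and 4, and -2.184 to -1.64 with each muscle left out.

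The sign turned for *Igf2* (0.013 without mouse 2, with or without the block, and -0.561 to 0.215 with each muscle left out) and *Igfbp5* (0.043 and -0.254 to 0.024). It turned for *Igf1r* (-0.052 with median-ratio scaling, with or without the block, -0.083 with quantile normalization, and -0.017 to 0.077 with each muscle left out). For *Igfbp7* it was -0.116 with median-ratio scaling, with or without the block, -0.037 with quantile normalization, -0.033, -0.035 and -0.01 without mouse 1, 3 and 4, with or without the block, and -0.091 to 0.114 with each muscle left out. The causes were not tested. *Igf1r* has no value with a mean of 5 TPM or more. The depth of the libraries is unknown.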
